A study of Mus musculus with 4 samples.

Results

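The goblet cell mucus genes described here are 10 genes, *Muc2*, *Fcgbp*, *Clca1*, *Zg16*, *Tff3*, *Agr2*, *Spink4*, *Ang4*, *Retnlb* and *Spdef*, which were chosen by symbol for their known place in colonic goblet cells. All 10 were found among the 16015 genes listed, and all 10 were among the 13983 that were tested. The study sequenced RNA of colonic epithelial cells to ask how *Bmal1* bears on the course of colitis, with 2 libraries from control mice and 2 labelled *Bmal1* cKO. The *Bmal1* cKO mice carried *Villin-CreERT2* and *Bmal1* fl/fl, so that tamoxifen injection removes *Bmal1*, a core activator of the circadian clock, from cells in which the villin promoter is active, which are the epithelial cells of the gut. The control mice were labelled wild type and, in the methods of the study, were *Bmal1* fl/fl mice. Whether they also received tamoxifen was not stated. All 4 mice received 3% dextran sulfate sodium (DSS), a polysaccharide that injures the colonic epithelium, for 5 days in drinking water and then plain water for 2 days, and they were sampled on day 7. By the methods of the study its mice had a C57BL/6 background and were 2 to 4 months old. Every value therefore belongs to injured tissue, since no library came from a mouse without DSS.

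Goblet cells are the secretory cells of the intestinal epithelium that make the mucus layer. They store large polymers of the mucin MUC2 in granules together with proteins that cross-link, cleave or decorate the mucus, and release them at the cell surface, where the gel keeps bacteria away from the epithelium. In colitis caused by DSS this layer is known to be thinned and goblet cells are known to lose their stored mucus.

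Libraries held between 10312791 and 14156639 reads in listed genes. The targeted gene was slightly lower, or higher (0.50) when changes are set against epithelial markers, and did not pass the test. *Arntl*, the gene symbol of *Bmal1*, had normalized counts of 358 and 342 in the control libraries and 341 and 289 in those labelled *Bmal1* cKO (log2 fold change -0.16 ± 0.14 SE, limma adjusted p = 0.389), so that the groups did not overlap but lay close together. Which exons the deletion removes was not given, so a count over the whole gene does not check it, and the genotype of the libraries is taken from the labels. Leukocyte and stromal marker genes were present in all 4 libraries and were far higher in the control libraries, with values given below beside the results. GC content also moved with the group: across 13975 genes the Spearman correlation of the log2 fold change with GC content was -0.61, a description across genes that share the same 4 libraries.

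The 10 genes lie at different places in the genome, given here in GRCm38 coordinates. *Muc2* (ENSMUSG00000025515) is at chr7:141690340-141754693 on the plus strand, and *Fcgbp* (ENSMUSG00000047730) at chr7:28071236-28120862 on the plus strand. *Zg16* (ENSMUSG00000049350) is at chr7:127050156-127087328 and *Clca1* (ENSMUSG00000028255) at chr3:145003817-145032776, both on the minus strand. *Tff3* (ENSMUSG00000024029) at chr17:31125306-31129646 and *Spdef* (ENSMUSG00000024215) at chr17:27714352-27728955 are on the minus strand of the same chromosome. *Agr2* (ENSMUSG00000020581) is at chr12:35992907-36004087 on the plus strand, *Spink4* (ENSMUSG00000028415) at chr4:40920052-40931395 on the plus strand, and *Retnlb* (ENSMUSG00000022650) at chr16:48816856-48818892 on the plus strand. *Ang4* (ENSMUSG00000060615) at chr14:51763878-51773590, minus strand, belongs to a cluster of closely related ribonuclease genes, and *Clca1* also has close relatives beside it, so the reads of both could be split among copies in counting, as could those of the repeats inside *Muc2* and *Fcgbp*. No annotated exon of another gene overlapped an exon of the 10 genes.

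RefSeq promoter sequences (GRCm38.p6) were found for 5 of the 10 genes and not for *Tff3*, *Clca1*, *Zg16*, *Spink4* and *Retnlb*. The 120 bases before the RefSeq start site, which lies inside the gene as given above for *Agr2* and *Spdef*, are shown for these 5 because they pair genes that fell with *Agr2*, which did not pass the test, and because *Spdef* encodes a transcription factor whose own level fell. Each is written 5′ to 3′ on the strand of its gene. Capitals mark TATAA, a form of the TATA box, searched on the given strand. They also mark GGAT, the core bound by SPDEF, searched on both strands, so that ATCC marks GGAT on the other strand. Other forms of the TATA box were not searched. The positions are chr7:141690220-141690339 (plus strand) for *Muc2*, chr7:28071116-28071235 (plus) for *Fcgbp*, chr12:35992805-35992924 (plus) for *Agr2*, chr14:51773591-51773710 (minus) for *Ang4* and chr17:27728952-27729071 (minus) for *Spdef*.
Muc2: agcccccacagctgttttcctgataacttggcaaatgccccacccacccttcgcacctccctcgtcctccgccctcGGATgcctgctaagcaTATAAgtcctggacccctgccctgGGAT
Fcgbp: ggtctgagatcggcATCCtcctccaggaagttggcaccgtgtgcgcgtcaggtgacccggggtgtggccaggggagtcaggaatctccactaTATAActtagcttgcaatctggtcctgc
Agr2: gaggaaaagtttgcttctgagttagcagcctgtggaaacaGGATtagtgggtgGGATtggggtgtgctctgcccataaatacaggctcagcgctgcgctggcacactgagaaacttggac
Ang4: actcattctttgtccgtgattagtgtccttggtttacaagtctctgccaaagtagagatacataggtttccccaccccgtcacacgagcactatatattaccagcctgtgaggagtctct
Spdef: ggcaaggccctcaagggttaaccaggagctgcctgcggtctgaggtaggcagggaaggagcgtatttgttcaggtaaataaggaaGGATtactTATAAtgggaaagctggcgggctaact

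TATAA stood 28 bases before the start site in *Muc2* and in *Fcgbp* and 27 bases before it in *Spdef*. This exact string was in neither the *Agr2* nor the *Ang4* window. Of all 32851 mouse promoter windows of this length, 8.53% held it. GGAT was found in 4 of the 5 windows, at 44 and 4 bases before the start in *Muc2*, 106 in *Fcgbp*, 80 and 67 in *Agr2* and 35 in *Spdef*, and 46.4% of all windows held it. CACGTG, the E-box that BMAL1 binds with CLOCK, was in none of the 5 windows and in 3.66% of all windows, searched on both strands. The motifs did not overlap each other in these windows. GC content was 60% for *Muc2*, 58.3% for *Fcgbp*, 52.5% for *Agr2*, 51.7% for *Spdef* and 45.8% for *Ang4*, with a median of 54.2% over all windows.

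After DSS, most of the mucus genes had lower counts in the libraries labelled *Bmal1* cKO, and a smaller group did not. *Muc2*, *Fcgbp*, *Clca1*, *Zg16*, *Tff3*, *Ang4* and *Spdef* fell, by 2.66 to 8.68 times when the control mean is divided by the *Bmal1* cKO mean. *Agr2*, *Spink4* and *Retnlb* did not pass the test, and their groups overlapped. Thus 7 of 10 were called lower at a limma adjusted p under 0.05 and 0 higher, where 27.7% of all 13983 tested genes were called lower and 29.0% higher. In the same 7 genes both libraries labelled *Bmal1* cKO lay below both controls, which was so for 41.7% of all tested genes, and in 0 of the 10 they lay above, against 40.3%. The median log2 fold change was -2.17 over the 10 genes and -0.04 over all tested genes. The count of 7 was 3 without *Bmal1* cKO mouse 1, 5 without *Bmal1* cKO mouse 2, where the 5 include *Spink4*, 6 without control mouse 2 and 7 without control mouse 1. In bulk RNA, fewer goblet cells and less of these RNAs in each goblet cell cannot be told apart.

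**Figure D1:**
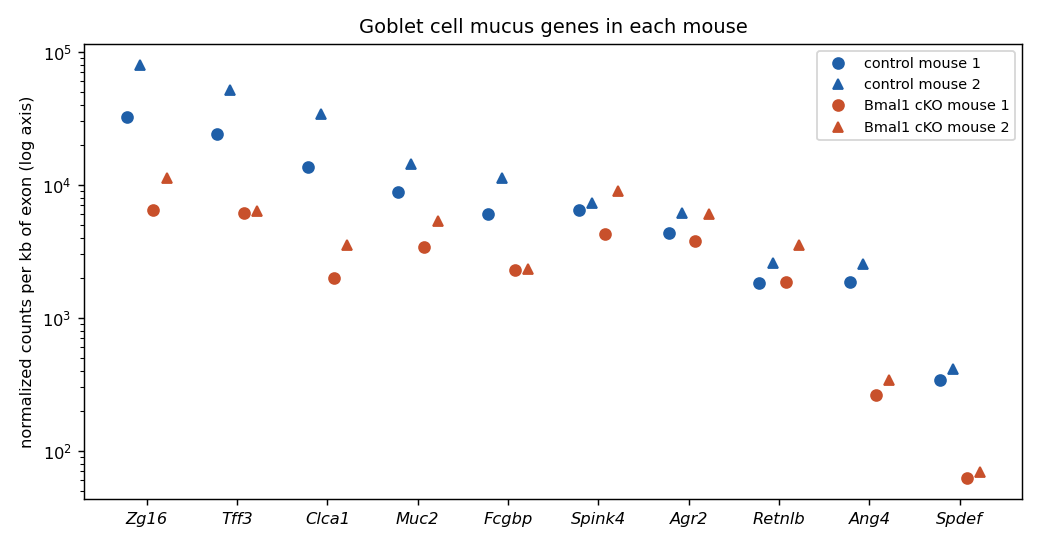
Normalized counts per kb of exon (log10 axis) of each of the 10 goblet cell mucus genes in the 2 control (blue) and 2 *Bmal1* cKO (red) libraries, 1 point a library. The *Bmal1* cKO points lie below both control points for 7 genes, and the groups overlap for *Agr2*, *Spink4* and *Retnlb*.

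*Muc2*, which encodes the gel-forming mucin of the colon, had normalized counts of 62753 and 101737 in the control libraries and 24129 and 37690 in the libraries labelled *Bmal1* cKO. Both *Bmal1* cKO values were below both controls, and the log2 fold change was -1.41 ± 0.34 (SE, 95% confidence interval -2.25 to -0.56, limma adjusted p = 0.0172). This was the smallest of the 7 falls and passed the test with the smallest margin. The log2 fold change was -1.06 without control mouse 2 (adjusted p = 0.0923, limma), -1.08 without *Bmal1* cKO mouse 1 (0.224) and -1.73 without *Bmal1* cKO mouse 2 (0.0890). The GC and length correction described below brought it to -1.15 (0.0508).

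*Fcgbp* encodes a large protein with von Willebrand D domains that becomes bound into the mucus. Its counts were 62624 and 117649 in the controls and 23783 and 24486 in the libraries labelled *Bmal1* cKO, which lay close together and below both controls. The log2 fold change was -1.83 ± 0.32 (SE, limma adjusted p = 0.00622). The call was lost with either *Bmal1* cKO mouse left out, while the log2 fold change stayed at -1.81 without mouse 1 (adjusted p = 0.106, limma) and -1.85 without mouse 2 (0.100). The GC and length correction described below brought it to -0.80 (0.107).

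*Clca1*, which encodes a secreted metalloprotease that cleaves MUC2, had the greatest fall of the 10 genes with all 4 libraries. It had 51677 and 129047 normalized counts in the controls and 7505 and 13309 in the libraries labelled *Bmal1* cKO, so the groups were far apart although the controls differed by 2.50 times. The log2 fold change was -3.03 ± 0.49 (SE, 95% confidence interval -4.27 to -1.79, limma adjusted p = 0.00469). Without *Bmal1* cKO mouse 1 it was -2.62 with an adjusted p of 0.0724 (limma). *Ang4* fell further than *Clca1* without control mouse 2 (-2.63 against -2.37) and without *Bmal1* cKO mouse 1 (-2.66 against -2.62).

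*Zg16*, the gene of a small lectin that binds bacterial cell walls, followed the same order of libraries. The controls had 40743 and 100296 normalized counts and the libraries labelled *Bmal1* cKO 8089 and 14045. All *Bmal1* cKO values were below the controls, and the log2 fold change was -2.58 ± 0.48 (SE, limma adjusted p = 0.00747). The log2 fold change was -2.19 without *Bmal1* cKO mouse 1 (adjusted p = 0.0946, limma) and -2.98 without *Bmal1* cKO mouse 2 (0.0515).

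*Tff3* encodes the trefoil peptide that goblet cells secrete with the mucin and that promotes repair of the epithelium. Its normalized counts were 11848 and 25286 in the controls and 3010 and 3099 in the libraries labelled *Bmal1* cKO. The groups did not overlap, with a log2 fold change of -2.50 ± 0.35 (SE, limma adjusted p = 0.00270). The call held with each of the 4 libraries left out.

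*Agr2*, whose product is a disulfide isomerase of the endoplasmic reticulum needed to fold MUC2, was at similar levels in both groups. It had 5589 and 7883 normalized counts in the controls and 4860 and 7733 in the libraries labelled *Bmal1* cKO, and mouse 2 of each group was higher than mouse 1 of the other. The log2 fold change was -0.11, with a 95% confidence interval from -0.79 to 0.56 (limma adjusted p = 0.732), so a fall as large as that of *Muc2* lay outside the interval of *Agr2*.

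*Spink4*, a goblet cell gene of the Kazal-type protease inhibitor family, had 3056 and 3480 normalized counts in the controls and 2031 and 4271 in the libraries labelled *Bmal1* cKO. The *Bmal1* cKO libraries held both the lowest and the highest value. The log2 fold change was -0.15, with a 95% confidence interval from -1.0 to 0.71 (limma adjusted p = 0.729). It was 0.39 without *Bmal1* cKO mouse 1 and -0.68 (adjusted p = 0.0402, limma) without *Bmal1* cKO mouse 2, so 1 library set its direction.

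The antimicrobial genes went different ways. *Ang4*, which encodes a bactericidal ribonuclease secreted into the gut lumen, had 1315 and 1780 normalized counts in the controls and 185 and 241 in the libraries labelled *Bmal1* cKO. The groups were well apart, and the log2 fold change was -2.85 ± 0.20 (SE, 95% confidence interval -3.36 to -2.34, limma adjusted p = 5.42e-04). *Retnlb*, the gene of the goblet cell protein RELMβ, which damages bacterial membranes, had 1278 and 1797 in the controls and 1285 and 2467 in the libraries labelled *Bmal1* cKO. Its groups overlapped, with a log2 fold change of 0.23 and a 95% confidence interval from -0.60 to 1.07 (limma adjusted p = 0.572). *Ang4* and *Retnlb* were at nearly the same level in each control library, and their ratio is given below.

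*Spdef* encodes the ETS family transcription factor that drives goblet cell maturation and was the only regulator among the 10 genes. It had 781 and 948 normalized counts in the controls and 143 and 159 in the libraries labelled *Bmal1* cKO. The values within each group were close, the groups were far apart, and the log2 fold change was -2.50 ± 0.15 (SE, 95% confidence interval -2.89 to -2.12, limma adjusted p = 5.33e-04). After the GC and length correction described below it was -1.27 (limma adjusted p = 0.00611). *Spdef*, *Ang4* and *Tff3* were the 3 genes whose call held with every single library left out. The fewest reads behind any of these values were 118, for *Spdef* in a *Bmal1* cKO library.

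**Figure D2:**
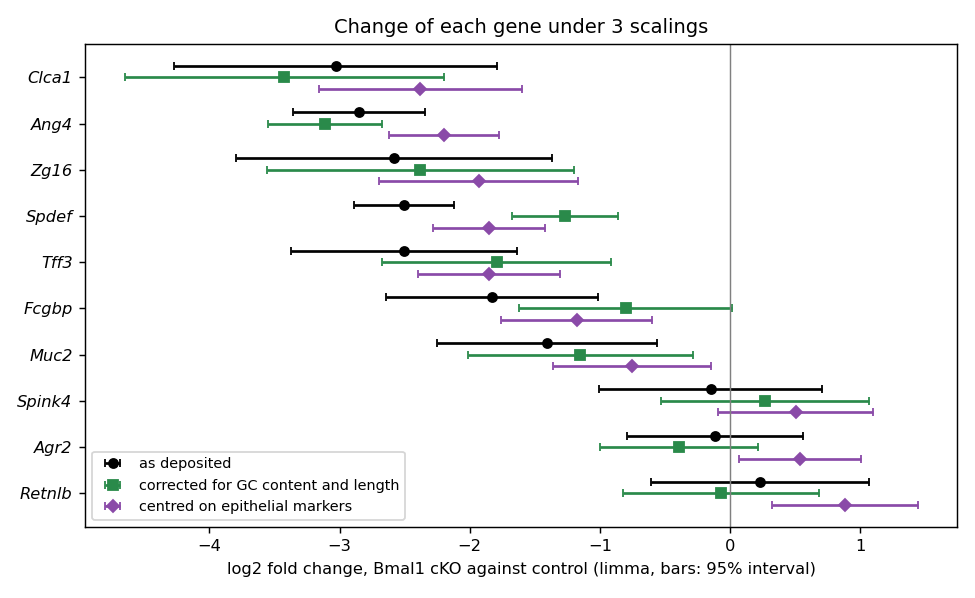
Log2 fold change of *Bmal1* cKO against control for the 10 genes with 95% confidence intervals from limma, before and after the GC content and length correction and after centring on epithelial markers. *Clca1* lies lowest at -3.03 and *Retnlb* highest at 0.23 before correction.

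Per kb of exon, levels can be compared between the genes. In the controls the mean normalized count per kb was highest for *Zg16* (56102), then *Tff3* (37661), *Clca1* (23924), *Muc2* (11540), *Fcgbp* (8587), *Spink4* (6851), *Agr2* (5218), *Retnlb* (2209), *Ang4* (2183) and *Spdef* (375). The values of neighbours in this order overlapped between the 2 mice, except for *Spink4* and *Agr2*, *Agr2* and *Retnlb*, and *Ang4* and *Spdef*. In the libraries labelled *Bmal1* cKO the order was *Zg16* (8804), *Spink4* (6607), *Tff3* (6196), *Agr2* (4877), *Muc2* (4337), *Clca1* (2755), *Retnlb* (2695), *Fcgbp* (2299), *Ang4* (300.2) and *Spdef* (65.6). Here the neighbours that did not overlap were *Tff3* and *Agr2*, *Fcgbp* and *Ang4*, and *Ang4* and *Spdef*. *Zg16* kept the first place among the 10 genes in both groups, while *Agr2* moved from the seventh to the fourth. *Clca1* was at place 3 in both controls and at place 7 in both libraries labelled *Bmal1* cKO, although its mean there was the sixth.

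Among all listed genes ranked by this mean per kb, *Zg16* was at rank 5 in the controls and 31 in the libraries labelled *Bmal1* cKO. *Tff3* went from rank 6 to 56 and *Clca1* from rank 9 to 146. *Muc2* went from 22 to 84, and *Fcgbp* from 34 to 206. *Spink4* was at 44 and 49, *Agr2* at 66 and 73, and *Retnlb* at 194 and 152, which were small moves beside those of the genes before them. *Ang4* went from 198 to 2297 and *Spdef* from 1619 to 6989. Together the 10 genes took 2.07% and 4.09% of all listed reads in the control libraries and 0.547% and 0.771% in the libraries labelled *Bmal1* cKO. The Wilson 95% intervals of these shares, which cover counting error only, were 2.07 to 2.08%, 4.08 to 4.10%, 0.543 to 0.551% and 0.766 to 0.777%, so the difference between the control mice was far beyond counting error.

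The 2 mice of a group also differed from each other in these genes. All 10 were higher in control mouse 2 than in control mouse 1, where 48.9% of all tested genes were. The ratio of control mouse 2 to control mouse 1 was 2.50 for *Clca1*, 2.46 for *Zg16*, 2.13 for *Tff3*, 1.88 for *Fcgbp* and 1.62 for *Muc2*, against a median of 0.994 over all tested genes. It was between 1.14 and 1.41 for *Spink4*, *Spdef*, *Ang4*, *Agr2* and *Retnlb*. *Clca1*, *Zg16*, *Tff3*, *Fcgbp* and *Muc2* were thus above 1.5, and 7.24% of all tested genes reached 1.5. In the *Bmal1* cKO pair all 10 genes were higher in mouse 2 as well, and 24.0% of all tested genes were higher in mouse 2 of both groups. There the greatest ratios were those of *Spink4* (2.10), *Retnlb* (1.92), *Clca1* (1.77) and *Zg16* (1.74), and *Tff3* and *Fcgbp* were both at 1.03. *Tff3* and *Fcgbp* thus differed between the controls and hardly between the *Bmal1* cKO mice, and *Spink4* the other way round.

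Ratios of genes within a library do not depend on how libraries are scaled, and they show only unequal change. They are not corrected for the GC trend described below. *Agr2*, chosen as the reference after the values were seen, is used here as a goblet cell gene whose groups overlapped. The ratio of *Muc2* to *Agr2* was 11.2 and 12.9 in the controls and 4.96 and 4.87 in the libraries labelled *Bmal1* cKO. That of *Tff3* was 2.12 and 3.21 against 0.619 and 0.401, and that of *Clca1* was 9.25 and 16.4 against 1.54 and 1.72. Relative to *Agr2*, both libraries labelled *Bmal1* cKO were below both controls in each of these genes. The same held for *Fcgbp* (11.2 and 14.9 against 4.89 and 3.17), *Zg16* (7.29 and 12.7 against 1.66 and 1.82), *Ang4* (0.235 and 0.226 against 0.0381 and 0.0311) and *Spdef* (0.140 and 0.120 against 0.0294 and 0.0206). After the GC and length correction, the log2 fold change was -0.39 for *Agr2*, -0.80 for *Fcgbp* and -1.27 for *Spdef*. *Fcgbp* and *Spdef* then lay nearer to *Agr2* than these ratios show, and each gene that had fallen still lay below *Agr2*. *Spink4* to *Agr2* was 0.547 and 0.442 in the controls and 0.418 and 0.552 in the libraries labelled *Bmal1* cKO, which overlapped, and *Retnlb* to *Agr2* was slightly higher in the libraries labelled *Bmal1* cKO, at 0.264 and 0.319 against 0.229 and 0.228.

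The pair of antimicrobial genes gave the widest split of the ratios computed. *Ang4* to *Retnlb* was 1.03 and 0.991 in the controls and 0.144 and 0.0975 in the libraries labelled *Bmal1* cKO, a difference of -3.09 on the log2 scale. *Clca1* to *Muc2* was 0.824 and 1.27 in the controls and 0.311 and 0.353 in the libraries labelled *Bmal1* cKO, so the protease fell further than the mucin it cleaves. *Fcgbp* to *Muc2* stayed nearer to level, at 0.998 and 1.16 against 0.986 and 0.650. After the GC and length correction the log2 fold change of *Muc2* (-1.15) was lower than that of *Fcgbp* (-0.80), and neither passed. *Zg16* to *Clca1* was 0.788 and 0.777 in the controls and 1.08 and 1.06 in the libraries labelled *Bmal1* cKO.

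**Figure D3:**
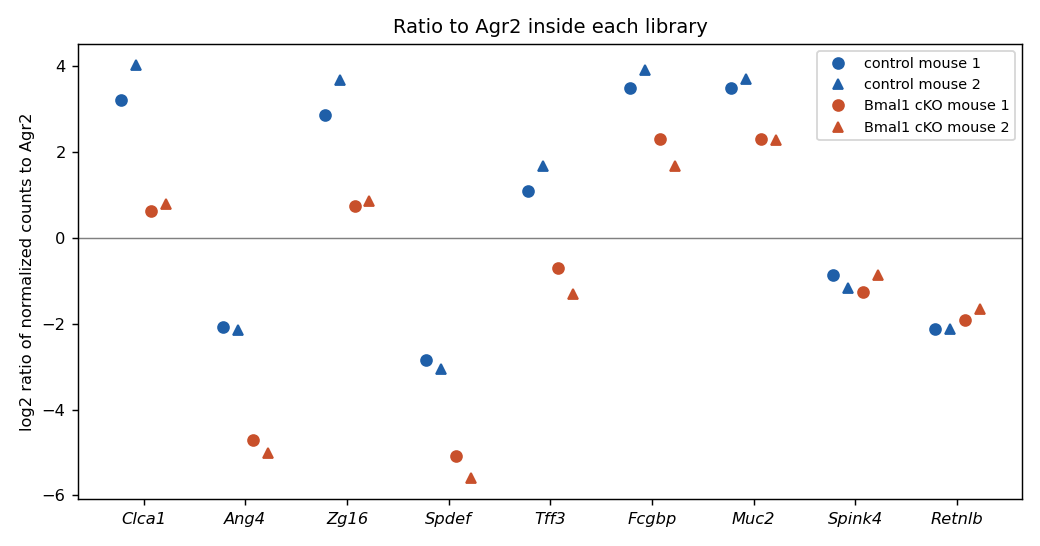
Log2 ratio of the normalized count of each gene to that of *Agr2* in the same library, 1 point a library, controls in blue and *Bmal1* cKO in red. The 7 genes that fell lie lower in both libraries labelled *Bmal1* cKO than in both controls, while *Spink4* overlaps and *Retnlb* is slightly higher.

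GC content moved with the group over all genes and has to be set beside each fall. In 10 classes of GC content with equal numbers of genes, the median log2 fold change of all tested genes ran from 1.13 in the lowest class to -1.35 in the highest. *Spdef*, at 59.5% GC, and *Fcgbp*, at 57.7%, were in the highest class, and *Fcgbp* lay within the middle 50% of it. The other 6 genes that fell lay below the lower quartile of their class. *Clca1* and *Ang4*, both at 46.4%, were in a class whose median was 0.37.

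A loess correction took out the trend with GC content and exon length. It left 5 of the 10 genes called lower and 0 higher, where 17.6% of 13975 genes were called lower and 18.4% higher. The median over the 10 genes was then -1.21. The corrected log2 fold change was -3.42 for *Clca1* (limma adjusted p = 0.00762), -3.11 for *Ang4* (0.00279), -2.38 for *Zg16* (0.0169), -1.79 for *Tff3* (0.0162) and -1.27 for *Spdef* (0.00611). *Muc2* and *Fcgbp* no longer passed, with -1.15 (limma adjusted p = 0.0508) and -0.80 (0.107). *Agr2* was at -0.39, *Spink4* at 0.27 and *Retnlb* at -0.07 after correction, and none of these passed. Whether RNA quality or library preparation had a part in the GC pattern was not tested.

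**Figure D4:**
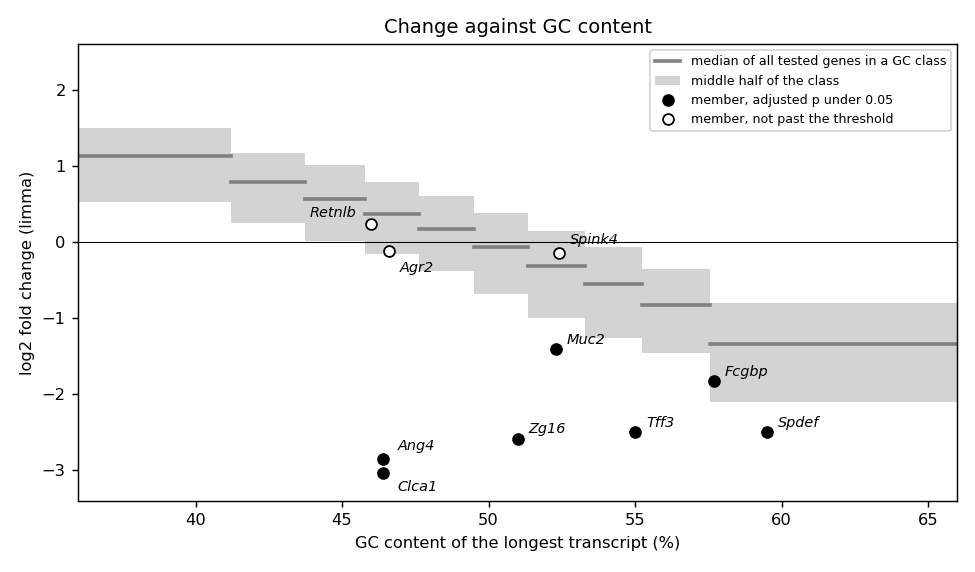
Log2 fold change (limma, uncorrected) of the 10 genes against the GC content of their longest transcript in percent. Grey lines and bands give the median and the middle 50% of all tested genes in 10 classes of GC content, and *Clca1*, *Ang4*, *Zg16*, *Tff3*, *Muc2* and *Spdef* lie below their band.

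The epithelial share of the RNA was also compared. Of 12 general epithelial markers, 6 were lower and 0 higher, and their summed normalized counts were 156159 and 178929 in the controls and 130626 and 138668 in the libraries labelled *Bmal1* cKO. After the GC and length correction 0 of the 12 were lower and 3 higher, so the fall of the markers depended on that correction. Setting the mean change of these 12 genes, uncorrected, to 0 raised every log2 fold change by 0.65, and 12.9% of all tested genes were then called lower and 47.1% higher. On this scale the same number of the 10 genes, 7, was called lower, with *Muc2* at -0.75 (limma adjusted p = 0.0343), *Fcgbp* at -1.18 (0.00278) and *Clca1* at -2.38 (2.03e-04). *Retnlb*, at 0.88 (limma adjusted p = 0.0114), and *Agr2*, at 0.54 (0.0486), were called higher, so the direction of *Agr2* and of *Spink4* (0.51) turned.

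The wider goblet cell lists, which hold genes around these 10, held calls in both directions. Of 60 genes on 5 lists, 53 were listed and 50 tested, with 18 lower, 10 higher and 22 neither, where 27.7% of all tested genes were lower and 29.0% higher, and the median log2 fold change was -0.23. After the GC and length correction 10 were lower and 10 higher (17.6% and 18.4% of all genes), and after centring on epithelial markers 7 and 22 (12.9% and 47.1%). On both of these scales the shares were near those of all genes. The counts of the single lists below stand against the same shares. Leaving out 1 library gave 18 lower and 6 higher without control mouse 1, 5 and 7 without control mouse 2, 4 and 5 without *Bmal1* cKO mouse 1, and 10 and 2 without *Bmal1* cKO mouse 2.

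The other mucins included 2 that fell, both bound to the cell membrane. *Muc1* had 356 and 362 normalized counts in the controls and 88.5 and 101 in the libraries labelled *Bmal1* cKO (log2 fold change -1.91 ± 0.17 SE, limma adjusted p = 7.96e-04). *Muc4* had 2263 and 3448 against 1045 and 1062, with -1.41 ± 0.20 (adjusted p = 0.00312, limma). Both were also called lower after the GC and length correction, with limma adjusted p of 0.00545 and 0.00705. The remaining 4 tested mucins passed in neither direction.

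Of 10 other secreted mucus and goblet proteins, 4 were higher and 2 lower, with a median of 0.27. After the GC and length correction 3 were higher and 2 lower, with a median of -0.06, and after centring 7 were higher and 1 lower, with a median of 0.92. *Dmbt1*, a secreted scavenger receptor protein that binds bacteria, had 84385 and 82747 normalized counts in the controls and 130480 and 177035 in the libraries labelled *Bmal1* cKO (log2 fold change 0.86 ± 0.28 SE, limma adjusted p = 0.0467). *Pla2g10*, a secreted phospholipase, rose from 678 and 1052 to 1438 and 1469 (0.78 ± 0.21 SE, limma adjusted p = 0.0255). *Clca4b*, a relative of *Clca1* on the same chromosome whose reads could be split with its close copies, was called higher at 0.74 (limma adjusted p = 0.0452), but stood at 0.08 (0.824) after the GC and length correction.

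The transcription factors of secretory and goblet cell fate gave 5 lower, 0 higher and 5 neither, but 1 lower and 2 higher after the GC and length correction and 0 lower and 2 higher after centring. *Atoh1*, which commits cells to the secretory lineage and was chosen here after its values were seen, had 467 and 875 normalized counts in the controls and 456 and 551 in the libraries labelled *Bmal1* cKO, which overlapped (log2 fold change -0.35, limma adjusted p = 0.359). *Gfi1*, *Creb3l1* and *Klf4*, factors known from secretory or goblet cells, were called lower at -1.15, -1.05 and -0.98 (limma adjusted p = 0.0225, 6.95e-04 and 0.0161). None of these 3 passed after the GC and length correction, at -0.21, 0.18 and -0.40. *Spdef* still passed there at -1.27.

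The genes of mucin folding and O-glycosylation had 4 higher and 1 lower among 10 tested, and 3 higher and 1 lower after the GC and length correction. After centring 7 were higher and 0 lower. *C1galt1*, the core enzyme that extends mucin O-glycans, had 4728 and 4838 normalized counts in the controls and 13979 and 15392 in the libraries labelled *Bmal1* cKO (log2 fold change 1.62 ± 0.11 SE, limma adjusted p = 5.33e-04). After the GC and length correction it was 0.55 (limma adjusted p = 0.0147). *Galnt7*, which acts in an earlier step of the same glycans, was at 1.35 (limma adjusted p = 0.00251) and at 0.52 (0.0714) after the correction. *Ern2*, the stress sensor of goblet cell endoplasmic reticulum, was called lower at -0.71 (limma adjusted p = 0.0313) and stood at 0.17 (0.561) after the correction.

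Among 14 genes of granule release and other goblet markers, 8 were lower and 2 higher, against 4 lower and 2 higher after the GC and length correction and 4 lower and 5 higher after centring. *Tpsg1*, a membrane-anchored tryptase, had 145 and 303 normalized counts in the controls and 17.5 and 43.3 in the libraries labelled *Bmal1* cKO (log2 fold change -2.88 ± 0.56 SE, limma adjusted p = 0.00835). *Best2*, an anion channel of colonic goblet cells, had 190 and 374 against 39.1 and 73.0 (-2.30 ± 0.45 SE, limma adjusted p = 0.00848). *Capn9*, a gut calpain, had 514 and 1223 against 229 and 272 (-1.66 ± 0.40 SE, limma adjusted p = 0.0178). All 3 were higher in control mouse 2 than in control mouse 1, as the 10 mucus genes were, and none passed after the GC and length correction, at -1.81, -1.33 and -1.08 (limma adjusted p = 0.0556, 0.0725 and 0.0871). All 3 were called lower after centring on epithelial markers. *Hepacam2*, another goblet cell marker, chosen here after its values were seen, had 1091 and 1905 against 1249 and 1814, and did not pass the test (log2 fold change 0.06, limma adjusted p = 0.871), but was called lower after the GC and length correction (-1.05, limma adjusted p = 0.0493).

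**Figure D5:**
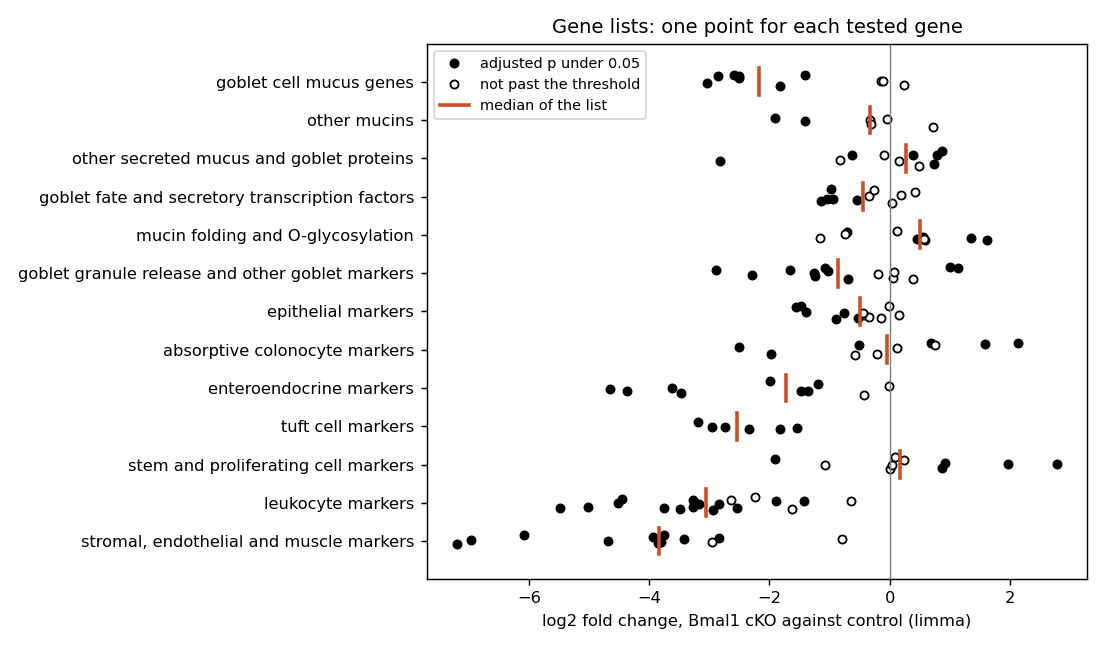
Log2 fold change (limma) of each tested gene of the goblet cell lists and of the cell type marker lists, 1 point a gene, filled where the adjusted p was under 0.05. Bars mark the list medians, which are -2.17 for the 10 mucus genes, -2.54 for tuft cell markers and -0.05 for absorptive colonocyte markers.

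Enteroendocrine and tuft cell markers moved with the mucus genes, while markers of absorptive and of stem and proliferating cells went both ways. Of 10 enteroendocrine markers, 8 were lower and 0 higher, and their summed normalized counts were 11262 and 16283 in the controls and 2385 and 2132 in the libraries labelled *Bmal1* cKO. All 6 tested tuft cell markers were lower, with sums of 1049 and 1095 against 176 and 260. Markers of absorptive colonocytes were lower for 3 and higher for 3 of 10, with sums of 45849 and 77736 against 55340 and 63247. Stem and proliferating cell markers were lower for 1 and higher for 4 of 10. The enteroendocrine and tuft cell markers thus shared the direction of the 7 mucus genes by count, where 27.7% of all tested genes were lower, while the wider goblet lists went both ways. Differences between the lists were not tested.

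Of 18 leukocyte markers, 14 were lower and 0 higher, and their sums were 18621 and 19767 in the controls and 1382 and 1549 in the libraries labelled *Bmal1* cKO, where none was at 0. Of 12 stromal, endothelial and muscle markers, 10 were lower and 0 higher, with sums of 17017 and 4659 in the controls and 545 and 630 in the libraries labelled *Bmal1* cKO, and 1 marker was at 0 in a *Bmal1* cKO library. RNA of cells outside the epithelium was thus in all 4 libraries. Control mouse 2, which had the higher mucus gene counts, had the lower stromal sum. The part of these cells in the changes of the mucus genes was not tested.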

How the data were processed

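RNA-seq of colonic epithelial cells was deposited by the authors as 1 table of 2 control and 2 *Bmal1* cKO libraries. The values, a signal in the terms used here, are normalized counts per gene, which the values show to be whole reads that the authors had divided by 1 factor a library. The submitters' processing notes name STAR, DESeq2, GRCm38 and mm10. The counter, annotation and strand setting are not given in the sources used here. The deposited log2 fold changes, their standard errors, the Wald score and the p-values hold the authors' own comparison and were not used.

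Dividing each library by its step gave whole reads for 100% of values (tolerance 0.01), with 10312791 to 14156639 reads a library. Genes were tested where the mean over the libraries reached 10, on log2(value + 1) with limma 3.58.1 (variance trend, 2 libraries a group, no covariate), with Benjamini-Hochberg adjustment over 13983 genes and a threshold of 0.05. This scale understates changes of low genes. Replicates are numbered in the labels, and p-values measure the spread between these libraries. Exon length and GC content came from the GRCm38 annotation. The GC and length correction subtracted a loess fit over all genes (span 0.3). edgeR 4.0.16 and DESeq2 1.42.0 were run on the recovered reads as alternatives. The test was also run on simulated data with known changes. Those data had no trend with GC content, unlike these libraries, so they cannot show how the test behaves under that trend.

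All 10 mucus genes are named. From each wider goblet list the 3 genes with the greatest absolute change were named, among those that passed, did not overlap and had a mean of at least 50. *Atoh1* and *Hepacam2* were added after their values were seen. The same rule for cell type markers was given by counts. The genes and lists were chosen with earlier results of these data known. Promoter sequences came from RefSeq, 120 bases before each start, and 5 of 10 genes matched.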

Additional observations from a re-analysis of the deposited data

How the results depend on the processing

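The count of 7 mucus genes called lower was 5 to 7 in all 14 alternatives that kept the 4 libraries (pseudocount, low filter, scaling, quantile normalization, edgeR, DESeq2, no trend, GC and length correction, replicate block), and 3 to 7 with 1 library left out. *Ang4*, *Clca1*, *Spdef*, *Tff3* and *Zg16* were called lower in all 14. *Muc2* did not pass under quantile normalization (adjusted p = 0.0958), limma without a trend (0.0517) or the GC and length correction (0.0508, but 0.0254 with the replicate block), and *Fcgbp* did not under the last (0.107, or 0.0887 with the block). The count called higher was 0, but 2 with epithelial centring, and 0 to 0 with 1 library left out. For *Spink4* the log2 fold change was 0.51 with centring, 0.27 with the GC correction, 0.27 with GC and the block, and -0.68 to 0.39 with 1 library left out. *Agr2* was 0.54 with centring and -0.45 to 0.22 with 1 left out. *Retnlb* was -0.14 under quantile normalization, -0.071 with the GC correction, -0.071 with GC and the block, and -0.24 to 0.70 with 1 left out. *Arntl* was 0.50 with centring. Of the 50 wider genes, 18 were lower, but 7 with centring, 9 without a trend and 10 with the GC correction, and 4 to 18 with 1 library left out. Their 10 higher genes were 4 with total scaling, 6 under quantile normalization, 22 with centring and 5 without a trend, and 2 to 7 with 1 left out. Over all genes 3871 were lower and 4059 higher, against 1808 and 6591 with centring, 2458 and 2570 with the GC correction, and 2077 and 2177 with GC and the block. With 1 library left out these were 2205 to 2852 and 2654 to 3154. In fits with 1 library left out the lone mouse is assumed to vary as the others do. The replicate numbers are shared by label only. Deviations of same-numbered mice correlated at -0.09, and with the replicate block 7 mucus genes were lower and 0 higher. The cause of these shifts was not tested. With 2 mice a group, how far the spread between mice or the depth limits the falls that can be called was not tested.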
